A study of Mus musculus with 14 samples.

Results

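The genes described here make, remodel and break down the glycerol-based lipids of the cell membrane. They are 36 named genes of phospholipid and glycerolipid synthesis, taken by symbol from 2 deposited expression tables of 46983 genes each, one for mouse corpus callosum and one for oligodendrocytes grown in culture. All 36 were present in both tables and carried an adjusted p in both, so no gene was lost to the filter on low read numbers, which left 19935 tested genes in callosum and 17503 in culture.

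Membrane phospholipids start from glycerol-3-phosphate, which is acylated in successive steps to phosphatidate. Phosphatidate is then either dephosphorylated by lipins to diacylglycerol, the substrate for phosphatidylcholine and phosphatidylethanolamine in the Kennedy pathway and for triacylglycerol, or activated to CDP-diacylglycerol, the source of phosphatidylinositol and cardiolipin. Finished phospholipids are edited by hydrolases that remove an acyl chain and acyltransferases that put another one back. Oligodendrocytes draw heavily on these steps, because myelin is a lipid-rich membrane that they wrap around axons.

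The study asked how loss of quaking, an RNA-binding protein encoded by Qk and abundant in myelinating glia, changes RNA levels in both systems. Corpus callosum came from mice of an FvB/C57BL6 hybrid background that carried Plp-CreERT2, a tamoxifen-inducible recombinase under a promoter active in the oligodendrocyte lineage. All of them received tamoxifen at 8 weeks of age, and tissue was taken 4 days later. The 4 mice labelled Qk-KO were Plp-CreERT2;QKLoxP/LoxP and the 4 labelled WT were Plp-CreERT2;QKLoxP/+, so the controls also carried the recombinase, the drug and 1 floxed copy. Cultured oligodendrocytes were differentiated from neural stem cells at passages 7, 12 and 13 with IGF-1 at 100 ng/ml and T3 (a thyroid hormone) at 50 ng/ml, with 3 libraries labelled Qk-KO and 3 labelled WT, 1 of each at every passage. The deposited fitted means hold no term for passage, so the culture calls do not use this pairing. Sample descriptions carry 40HT for the cultures labelled Qk-KO and EtOH for those labelled WT, so this treatment and the genotype cannot be told apart. Nothing in the labels says that the cultures came from separate animals, so their p-values measure the spread between cultures, which may be technical.

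The library columns of both tables hold a model's fitted means, in which the libraries of a genotype differ by 1 constant factor. Each gene therefore has 1 fitted level per genotype and system, given below in CPM (a gene's fitted count as a share of the library total, on the usual scale), and no value per library could be shown. Changes are log2 values, Qk-KO minus WT, with the standard error (SE) from the authors' deposited table, and a gene is said to have risen or fallen where its deposited adjusted p was under 0.05. Library totals of fitted counts ranged from 15048646 to 27666519 (callosum) and from 38325833 to 48912999 (culture). The targeted gene, Qk, was lower in neither system. It did not pass in callosum (0.32 ± 0.12, adjusted p = 0.162) and rose in culture (0.66 ± 0.14, adjusted p = 4.19e-05) in the authors' deposited table. Which parts of the gene were counted is not given, so these values check neither the deletion nor the labels.

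Quaking is known to bind RNA at a core written ACTAAC or ACTAAT in DNA letters, and 3′ UTRs are a usual place for it. The following 30-base windows show 8 such cores in 3′ UTRs of members described below. The genes were picked by their changes, 7 that fell in culture and, last, 1 that rose in callosum. For each gene 1 core is shown, although Agpat3, Cds2, Mboat2 and Pla2g16 hold more. Members that did not pass, such as Pcyt1a with 3 cores and Agpat5 with 2, are not shown. They were read 5′ to 3′ on the gene's strand from the GENCODE transcripts of GRCm38 (the build also called mm10), with the core in capitals.
Abhd4, core at chr14:54267943-54267948, plus strand: ctttcctcaccaACTAACatgtgccagcca
Agpat3, core at chr10:78273562-78273567, minus strand: tattaactggtgACTAATattaacaaaact
Gpam, core at chr19:55069704-55069709, minus strand: tgaatttcaaacACTAACtgtatcctatga
Ptdss1, core at chr13:66997439-66997444, plus strand: gatgttgacttaACTAACtggctaatgaac
Mboat2, core at chr12:24959248-24959253, plus strand: taaggaagagagACTAACtgggtggaaagg
Pla2g16, core at chr19:7587523-7587528, plus strand: tatggcaggaccACTAACctaacattcatg
Cds2, core at chr2:132306722-132306727, plus strand: ccaagagtggtaACTAACccacagccctgc
Lpcat2, core at chr8:92918291-92918296, plus strand: atgtgtttatcaACTAATgttgttcacgat

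Over the longest annotated 3′ UTR of each gene, searched on the sense strand, 17 of 36 members held at least 1 core, which is 47.2%, against 34.6% of 13808 genes tested in culture with such a UTR. Per length the members were no richer, with 0.344 cores per kb against 0.343. Among members that fell in culture 10 of 17 held a core, among those that did not pass 7 of 16, and among the 3 that rose none. The members that fell have longer 3′ UTRs (median 2086 bases) than those that did not pass (median 950 bases), and per kb they held 0.382 and 0.341 cores. Over all tested genes these densities were 0.441 for those that fell and 0.334 for those that did not pass. Of all tested genes that fell in culture 42.8% held one, of those that rose 34.3%, and of those that did not pass 32.5%. Chpt1 and Abhd3, with some of the deepest falls below, had no match in their 3′ UTR. A match is a description of the letters and not a bound site.

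Promoter windows from RefSeq (GRCm38.p6, 250 bases before to 50 after a start site) matched 29 of the 36 members in 44 windows. The 250 bases before the start site are printed for 4 genes that fell in culture and for Lpcat2, which rose in callosum, with 1 of 2 windows shown for Abhd4 and Gpam, and with 4 motifs in capitals where they occur on either strand. These are the box CCAAT, the E-box CACGTG, the sterol response element TCACNCCAC and the nuclear receptor motif AGGTCA.
Abhd4, chr14:54253879-54254128, plus strand: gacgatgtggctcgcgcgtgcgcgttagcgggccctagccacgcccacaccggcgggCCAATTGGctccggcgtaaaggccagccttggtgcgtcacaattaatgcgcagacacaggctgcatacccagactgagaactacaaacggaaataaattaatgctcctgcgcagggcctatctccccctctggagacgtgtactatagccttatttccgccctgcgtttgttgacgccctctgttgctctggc
Agpat3, chr10:78351701-78351950, minus strand: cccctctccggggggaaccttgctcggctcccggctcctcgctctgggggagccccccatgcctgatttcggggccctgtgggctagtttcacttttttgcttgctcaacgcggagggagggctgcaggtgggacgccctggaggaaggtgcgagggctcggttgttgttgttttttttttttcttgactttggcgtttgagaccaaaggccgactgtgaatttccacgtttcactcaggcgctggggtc
Chpt1, chr10:88503971-88504220, minus strand: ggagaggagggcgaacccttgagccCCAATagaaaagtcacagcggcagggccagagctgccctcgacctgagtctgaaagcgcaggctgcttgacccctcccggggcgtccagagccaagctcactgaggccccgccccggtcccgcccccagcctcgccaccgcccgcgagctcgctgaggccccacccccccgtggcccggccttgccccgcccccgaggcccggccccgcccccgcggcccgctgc
Gpam, chr19:55127239-55127488, minus strand: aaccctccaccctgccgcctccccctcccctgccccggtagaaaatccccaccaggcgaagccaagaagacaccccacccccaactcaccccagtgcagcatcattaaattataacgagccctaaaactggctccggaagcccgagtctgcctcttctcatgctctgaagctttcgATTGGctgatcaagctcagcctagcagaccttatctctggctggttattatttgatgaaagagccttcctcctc
Lpcat2, chr8:92855083-92855332, plus strand: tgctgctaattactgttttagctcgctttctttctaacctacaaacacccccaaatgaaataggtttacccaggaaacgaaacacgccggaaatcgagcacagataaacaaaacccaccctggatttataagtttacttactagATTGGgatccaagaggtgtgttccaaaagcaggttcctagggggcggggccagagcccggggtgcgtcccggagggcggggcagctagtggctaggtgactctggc

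The CCAAT box, read as CCAAT or as its complement, stands in the stretches of Abhd4, where both readings overlap, and of Chpt1, Gpam and Lpcat2. Agpat3 holds none of the motifs searched, and neither of the windows of Abhd4 and Gpam that are not printed holds CCAAT, while that of Gpam holds AGGTCA. Over the 300-base windows, CCAAT stood in 19 of 44 member windows and in 37.4% of 32851 windows of all genes. The E-box CACGTG stood in 3 member windows and 7.15% of all, and the nuclear receptor motif AGGTCA in 4 and 16.3%. The sterol response element TCACNCCAC stood in 2, both overlapping windows of Pcyt1a, and in 1.24% of all. The GC box GGGCGG, left in lower case above, stood in 28 member windows and in 35.7% of all.

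In the corpus callosum the pathway moved little. Lpcat2 and Mboat1, both lysophospholipid acyltransferases, rose, and none of the 36 genes fell. Those 2 genes are 5.56% of the members, where 2.32% of all tested genes passed in either direction and 2.09% passed upward. The member median was -0.01 log2 units, as was that of all tested genes, and 9 members had an unadjusted p under 0.05.

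Lpcat2 re-acylates lysophosphatidylcholine and also makes platelet-activating factor, an inflammatory lipid. It went from 13.4 CPM in WT to 20.4 CPM in Qk-KO (0.59 ± 0.17, adjusted p = 0.0277) in the authors' deposited table. Mboat1 acylates lysophosphatidylserine and lysophosphatidylethanolamine. It stood at 4.97 CPM in WT and 7.53 CPM in Qk-KO, a change of 0.58 ± 0.16 (adjusted p = 0.0166) in the authors' deposited table. Neither call held when the deposited score was referred to a Student distribution with 6 residual degrees of freedom (smallest member adjusted p = 0.604), a setting under which 8 of all tested genes passed, against 463.

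Microglia markers rose in the same libraries. Of 10 such markers 7 rose and none fell, and their summed level went from 381 to 792 CPM. Tyrobp, an adaptor of microglial receptors, changed by 2.24 ± 0.19, Trem2, a lipid-sensing receptor, by 1.98 ± 0.23 and the protease Ctss by 1.45 ± 0.17 in the authors' deposited table. Their part in the rise of Lpcat2 and Mboat1 was not tested. In bulk tissue, more cells of a type and more RNA per cell cannot be told apart. Of the 10 microglia markers, 2 were tested in culture and both fell, from 20.5 CPM in WT to 12.1 CPM in Qk-KO in sum. Trem2 and Itgam were at 0 there, and Csf1r (0.130 and 0.174 CPM) and Cx3cr1 (0.00975 and 0.0149 CPM) were near it. Lpcat2 stood at 0.226 CPM in WT culture and 0.499 CPM in Qk-KO culture. Astrocyte markers rose in 2 of 8 cases, with Gfap at 2.06 ± 0.19 and Aqp4 at 0.69 ± 0.18 in the authors' deposited table, and their sum went from 4858 to 6030 CPM. Of 7 oligodendrocyte markers Mog, Mag and Opalin rose and none fell, with sums of 4549 and 5542 CPM. Choroid plexus and ependymal markers summed to 1965 CPM in WT and 1145 CPM in Qk-KO, with 0 of 5 called and 3 at an unadjusted p under 0.05. Neuron markers summed to 6190 CPM in WT and 5788 CPM in Qk-KO, with 0 of 8 called.

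The other 34 members did not pass in callosum, and their changes lay between -0.37 and 0.33. Nearest to the threshold were Gpam, the mitochondrial enzyme of the first acylation step (0.27 ± 0.10, adjusted p = 0.208), and Agpat4, which acylates lysophosphatidate (0.33 ± 0.13, adjusted p = 0.211), in the authors' deposited table. Pla2g16, an acyl-chain hydrolase, followed with 0.30 ± 0.12 (adjusted p = 0.310) in the authors' deposited table. Chpt1 and Cept1, the last enzymes of the choline branch, had -0.22 ± 0.11 and -0.19 ± 0.09 with adjusted p of 0.565 and 0.525 in the authors' deposited table. For Chpt1 the 95% interval in bulk tissue ran from -0.43 to -0.01, so a tissue change as deep as the one in culture lay outside it. A change within oligodendrocytes alone was not measured. All 4 genes of the CDP-diacylglycerol and cardiolipin branch were on the negative side, from -0.23 to -0.09, with none called and Crls1 alone at an unadjusted p under 0.05 (p = 0.0459) in the authors' deposited table.

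**Figure D1:**
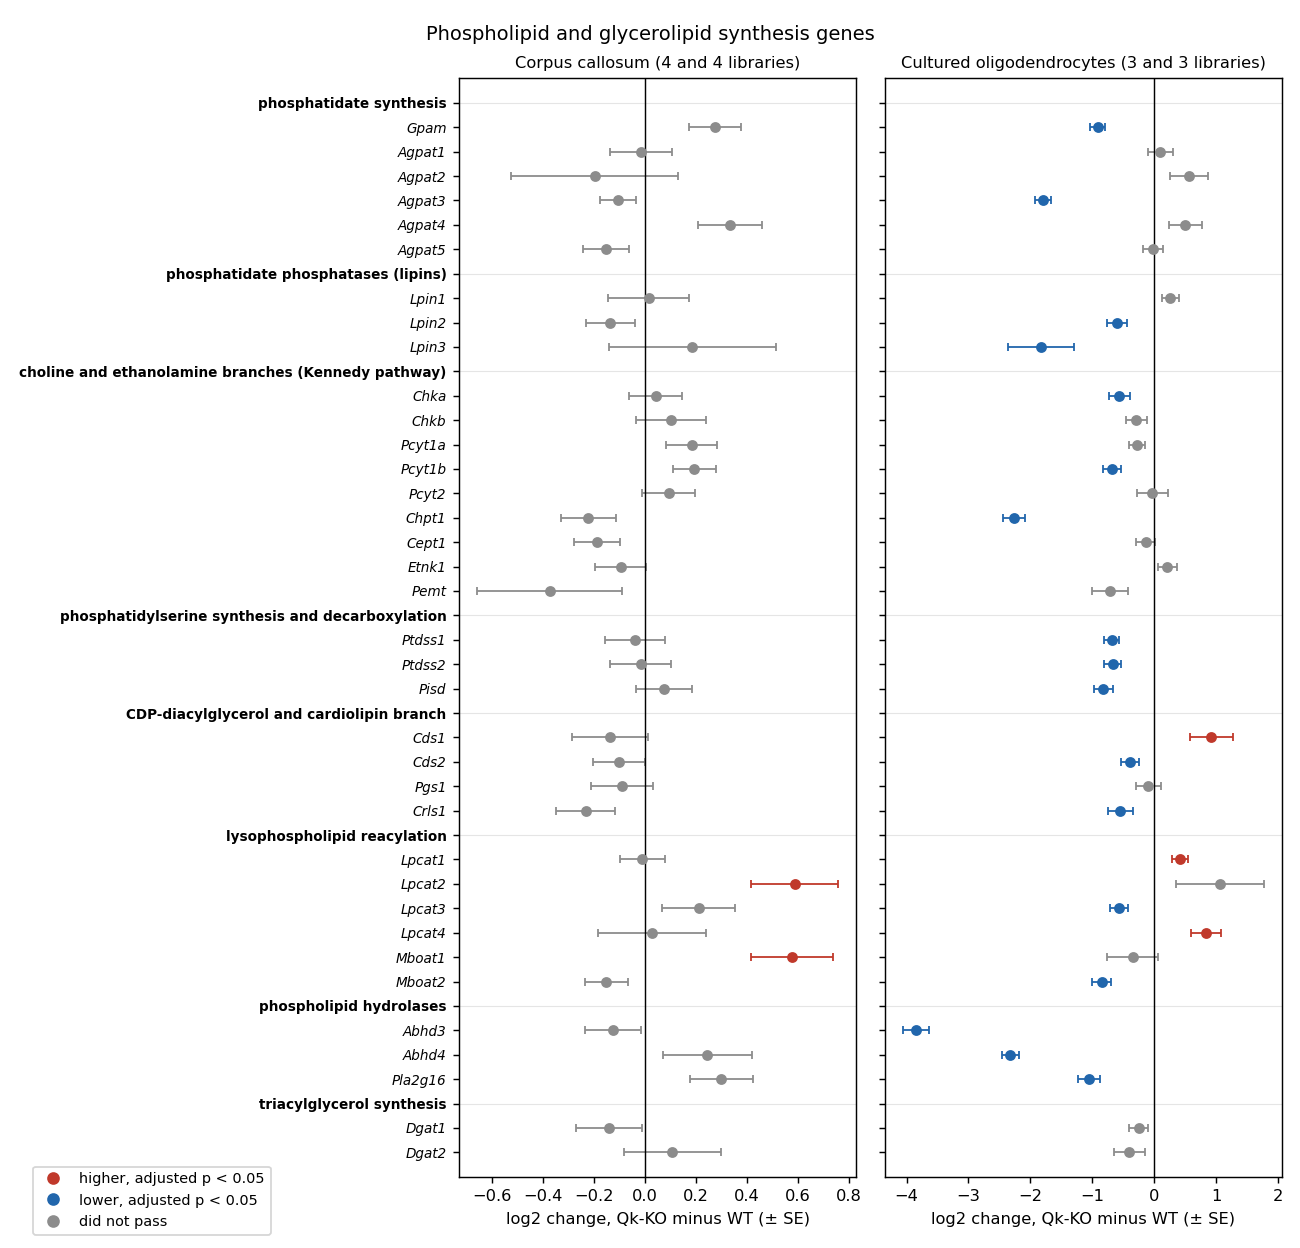
Log2 change (Qk-KO minus WT, x axes, with different ranges) of each of the 36 genes, grouped by role on the y axis, in callosum (4 and 4 libraries) and culture (3 and 3 libraries). Points are deposited changes, bars are ± SE and colour marks the deposited adjusted p. In callosum 2 points are called, both higher, and in culture 17 are called lower and 3 higher.

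In the cultures labelled oligodendrocyte 20 of the 36 genes passed, 17 lower and 3 higher in Qk-KO. These cultures also held astrocyte markers, which summed to 13838 CPM in WT and 3912 CPM in Qk-KO, as described below. The falls are 47.2% of the members, where 15.2% of all tested genes fell, or 18.4% of those with a mean normalized count of at least 50. The rises are 8.33% of the members, where 13.3% of all tested genes rose, and 28.6% of all tested genes passed in either direction. The member median was -0.40 log2 units, against 0.01 for all tested genes. Under scaling by library size the split of all called genes moved from 2336 higher and 2667 lower to 3054 higher and 2296 lower, and that of the members to 3 higher and 15 lower. None of the 20 calls held with a Student reference of 4 residual degrees of freedom, under which no gene of the table passed (smallest member adjusted p = 0.057).

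Phosphatidate synthesis fell at 2 of its 6 genes. Gpam catalyses the first acylation of glycerol-3-phosphate at the outer mitochondrial membrane. Its fitted level went from 584 CPM in WT to 327 CPM in Qk-KO, a 1.88-fold fall (-0.91 ± 0.12, adjusted p = 5.37e-12) in the authors' deposited table. Agpat3 (chromosome 10, 78269178 to 78352489, minus strand) adds the next acyl chain and is known to favour polyunsaturated ones. It went from 334 to 101 CPM, a 3.48-fold fall (-1.80 ± 0.13, adjusted p = 1.70e-40) in the authors' deposited table. The 4 other enzymes of that step did not pass. Agpat1 had 0.10 ± 0.20, Agpat2 0.57 ± 0.31, Agpat4 0.50 ± 0.27 and Agpat5 -0.02 ± 0.16 in the authors' deposited table. Agpat5 shares 18.9% of its exon bases with an antisense gene.

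Per kb of exon, Agpat3 was the largest of the 5 Agpat genes in WT culture, with 50.7% of their summed 84.6 CPM per kb, and in Qk-KO culture it held 20.6% of 63.2. Agpat1 went from 26.9% to 40.7% of that sum and Agpat4 from 11.5% to 22.9%, without a called change of their own. In callosum the Agpat3 share was 35.1% in WT and 31.9% in Qk-KO. These shares are fitted levels set side by side and carry no error. Exon length here is that of all annotated exons of a gene merged, so shares and orders per kb depend on this choice.

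Lipins turn phosphatidate into diacylglycerol, and 2 of the 3 fell in culture. Lpin3 went from 12.6 to 3.77 CPM (-1.82 ± 0.53, adjusted p = 0.00341) in the authors' deposited table, with a wide error. Lpin2 went from 48.3 to 33.6 CPM (-0.60 ± 0.16, adjusted p = 0.00102) in the authors' deposited table. Lpin1 stood at 88.1 CPM in WT and 111 CPM in Qk-KO and missed the threshold (0.26 ± 0.14, adjusted p = 0.164) in the authors' deposited table. Its share of the lipins per kb went from 55.3% to 75.4%, while that of Lpin3 went from 20.8% to 6.67%. In callosum Lpin2 was the largest lipin, with 64.4% and 61.7%.

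The choline branch fell mainly at its end. Chpt1 (chromosome 10, 88452745 to 88504073, minus strand) joins CDP-choline to diacylglycerol and so makes phosphatidylcholine. It went from 209 CPM in WT to 45.9 CPM in Qk-KO, a 4.80-fold fall (-2.26 ± 0.18, adjusted p = 1.19e-34) in the authors' deposited table. Cept1, which does the same and also makes phosphatidylethanolamine, missed the threshold (-0.14 ± 0.15, adjusted p = 0.572) in the authors' deposited table. Chpt1 held 79.9% of their sum per kb in WT culture (31.4 CPM per kb) and 47.6% in Qk-KO culture (11.6 CPM per kb). In callosum it held 41.8% and 41.2%. Cept1 shares 24.9% of its exon bases with genes on the other strand, so its level is uncertain.

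Further up the branch the falls were smaller. Chka, a choline kinase, went from 26.9 to 19.2 CPM (-0.56 ± 0.17, adjusted p = 0.00488) in the authors' deposited table. Pcyt1b, an enzyme that makes CDP-choline in the step that sets the pace of the pathway, went from 26.4 to 17.4 CPM (-0.68 ± 0.14, adjusted p = 3.07e-05) in the authors' deposited table. Pcyt1a, the other enzyme of that step and the larger per kb in culture (73.0% of both in WT), missed the threshold with -0.28 ± 0.12 (adjusted p = 0.0767) in the authors' deposited table. The choline kinase Chkb (-0.29 ± 0.16) missed the threshold in the authors' deposited table, and 57.6% of its exon bases lie in other genes, mostly the same-strand model Gm44502.

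The ethanolamine branch and the methylation route were not called. Etnk1, an ethanolamine kinase, had 0.22 ± 0.16, and Pcyt2, which makes CDP-ethanolamine, -0.03 ± 0.25 in the authors' deposited table. Pemt, which methylates phosphatidylethanolamine to phosphatidylcholine, was low at 2.40 and 1.54 CPM and just missed the threshold (-0.71 ± 0.30, adjusted p = 0.0543) in the authors' deposited table. It passed when genes with a mean under 50 were left out (adjusted p = 0.0450) and when changes were centred on the median of all genes (adjusted p = 0.0494).

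Phosphatidylserine synthesis and its conversion to phosphatidylethanolamine fell at all 3 of its genes, to similar degrees. Ptdss1 and Ptdss2 exchange the head group of existing phospholipids for serine. Ptdss1 went from 101 to 66.2 CPM (-0.69 ± 0.13, adjusted p = 9.57e-07) and Ptdss2 from 30.4 to 20.2 CPM (-0.67 ± 0.14, adjusted p = 1.18e-05) in the authors' deposited table. Pisd, the mitochondrial decarboxylase, went from 62.6 to 37.4 CPM (-0.82 ± 0.15, adjusted p = 7.77e-07) in the authors' deposited table. Pisd shares 20.9% of its exon bases with overlapping models and has 2 pseudogenes, Pisd-ps1 and Pisd-ps2, so its value is uncertain. In callosum these 3 genes lay between -0.04 and 0.08.

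The CDP-diacylglycerol branch split. Cds2, the main CDP-diacylglycerol synthase here, went from 141 to 113 CPM (-0.39 ± 0.14, adjusted p = 0.0245) in the authors' deposited table. Cds1, its paralog, stood at 0.931 CPM in WT and 1.86 CPM in Qk-KO and rose (0.92 ± 0.35, adjusted p = 0.0325) in the authors' deposited table. Crls1, cardiolipin synthase, went from 33.6 to 24.3 CPM (-0.55 ± 0.20, adjusted p = 0.0255) in the authors' deposited table. Pgs1, which makes the phosphatidylglycerophosphate that precedes cardiolipin, missed the threshold (-0.09 ± 0.20) in the authors' deposited table. The calls of 3 of these genes changed with the setting. Under library-size scaling Cds2 (adjusted p = 0.0792) and Crls1 (adjusted p = 0.0590) lost theirs, and without a filter on low means Cds1 did (adjusted p = 0.0523). Even in Qk-KO culture Cds1 was 3.68% of both synthases per kb, whereas in callosum it was 23.6% in WT and 23.2% in Qk-KO.

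Among the 6 lysophospholipid acyltransferases 2 fell and 2 rose. Mboat2 went from 126 to 73.8 CPM (-0.85 ± 0.15, adjusted p = 4.67e-07) in the authors' deposited table. Lpcat3, which puts polyunsaturated chains into phosphatidylcholine, went from 70.0 to 49.9 CPM (-0.57 ± 0.15, adjusted p = 7.35e-04) in the authors' deposited table. Lpcat1, which favours saturated chains, went the other way, from 63.4 to 89.8 CPM (0.42 ± 0.13, adjusted p = 0.00461) in the authors' deposited table. Lpcat4 rose from 3.76 to 7.07 CPM (0.84 ± 0.24, adjusted p = 0.00288) in the authors' deposited table. Lpcat2, near the floor, missed the threshold (1.06 ± 0.71), nor did Mboat1 (-0.35 ± 0.41) in the authors' deposited table.

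Their summed level per kb was 51.1 CPM in WT culture and 46.2 CPM in Qk-KO culture, with a different make-up. Lpcat1 went from 26.8% to 42.0% of the sum, Lpcat3 from 42.0% to 33.1% and Mboat2 from 25.8% to 16.7%. In callosum Lpcat4 was the largest per kb, with 39.2% in WT and 37.6% in Qk-KO, and Lpcat2 went from 8.76% to 12.4%. Before division by length Mboat2 was larger than Lpcat4 there, with 72.3 against 49.9 CPM in WT.

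**Figure D2:**
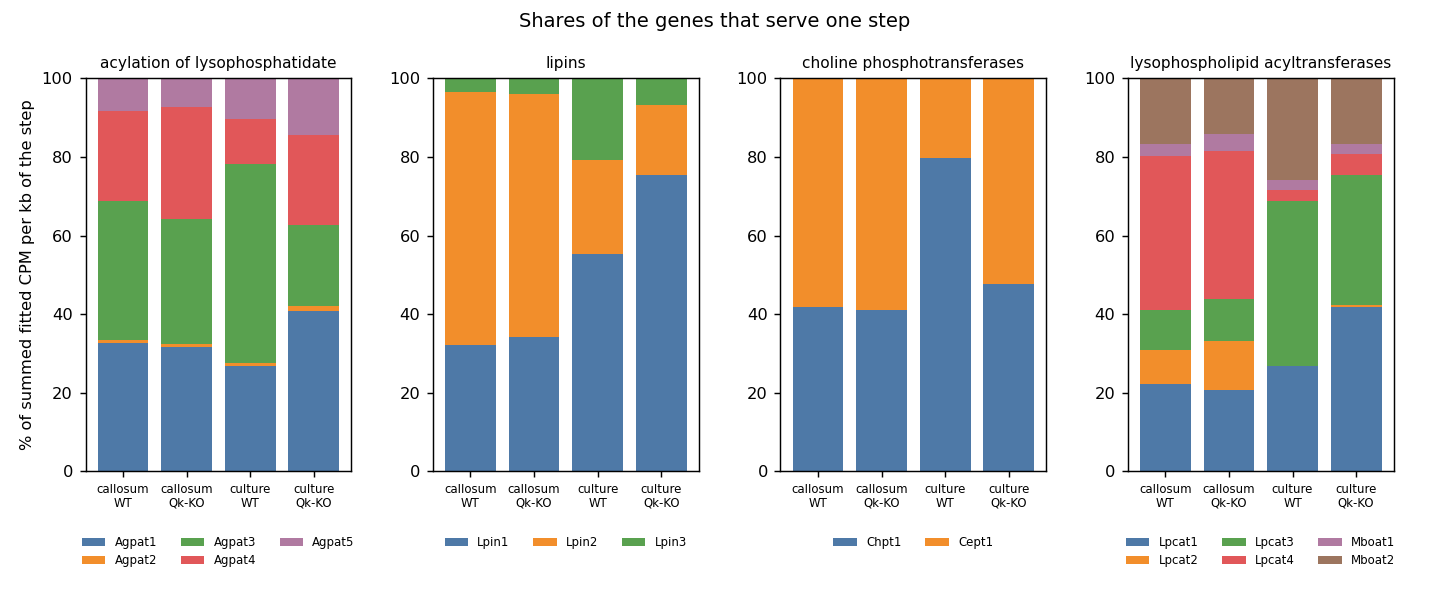
Shares of the genes that serve 1 step, as % of their summed fitted CPM per kb of exon (y axis), for both genotypes and systems (x axis). Agpat3 shrinks from 50.7% to 20.6% and Chpt1 from 79.9% to 47.6% between WT and Qk-KO culture, and callosum bars of both genotypes differ less.

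The hydrolases held the deepest falls of the set. Abhd3, which cleaves phosphatidylcholine with unusual acyl chains, went from 125 CPM in WT to 9.20 CPM in Qk-KO, a 14.4-fold fall (-3.85 ± 0.21, adjusted p = 3.52e-69) in the authors' deposited table. Abhd4 (chromosome 14, 54254188 to 54270637, plus strand) removes acyl chains from N-acyl phosphatidylethanolamine. It went from 538 to 114 CPM, a 4.99-fold fall (-2.32 ± 0.13, adjusted p = 1.31e-64) in the authors' deposited table. Pla2g16 went from 47.2 to 24.1 CPM (-1.05 ± 0.18, adjusted p = 1.72e-07) in the authors' deposited table. Their summed level per kb was 225 CPM in WT and 42.4 CPM in Qk-KO. In callosum the same genes had -0.12 ± 0.11, 0.24 ± 0.17 and 0.30 ± 0.12 in the authors' deposited table, and none passed.

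Triacylglycerol synthesis did not pass at either gene. Dgat1 stood at 12.9 and 11.5 CPM (-0.25 ± 0.16, adjusted p = 0.252) and Dgat2 at 48.9 and 39.1 CPM (-0.40 ± 0.25, adjusted p = 0.251) in the authors' deposited table. For Dgat2 the 95% interval ran from -0.90 to 0.10, which includes changes as deep as those of Mboat2 and Pisd.

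Per kb of exon, Abhd4 (164), Gpam (87.7) and Abhd3 (53.8) had the highest fitted levels of the 36 genes in WT culture, in CPM per kb. In Qk-KO culture Gpam was first with 49.1 and Abhd4 second with 34.7, and Abhd3 ranked 22 of 36 with 3.94. Callosum had another order, with Cds2 (79.1), Agpat3 (28.1) and Agpat1 (26.1) first in WT, and the same 3 genes first in Qk-KO with 75.1, 26.6 and 26.3. The tables were normalized separately, so these are orders within a system. The neighbours Agpat3 and Agpat1 in callosum lie close, and no error was available for levels. The orders also depend on the length used, that of all annotated exons merged. Etnk1, with 14151 such bases, had 364 CPM in WT callosum against 219 for Agpat3, but 25.7 CPM per kb.

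**Figure D3:**
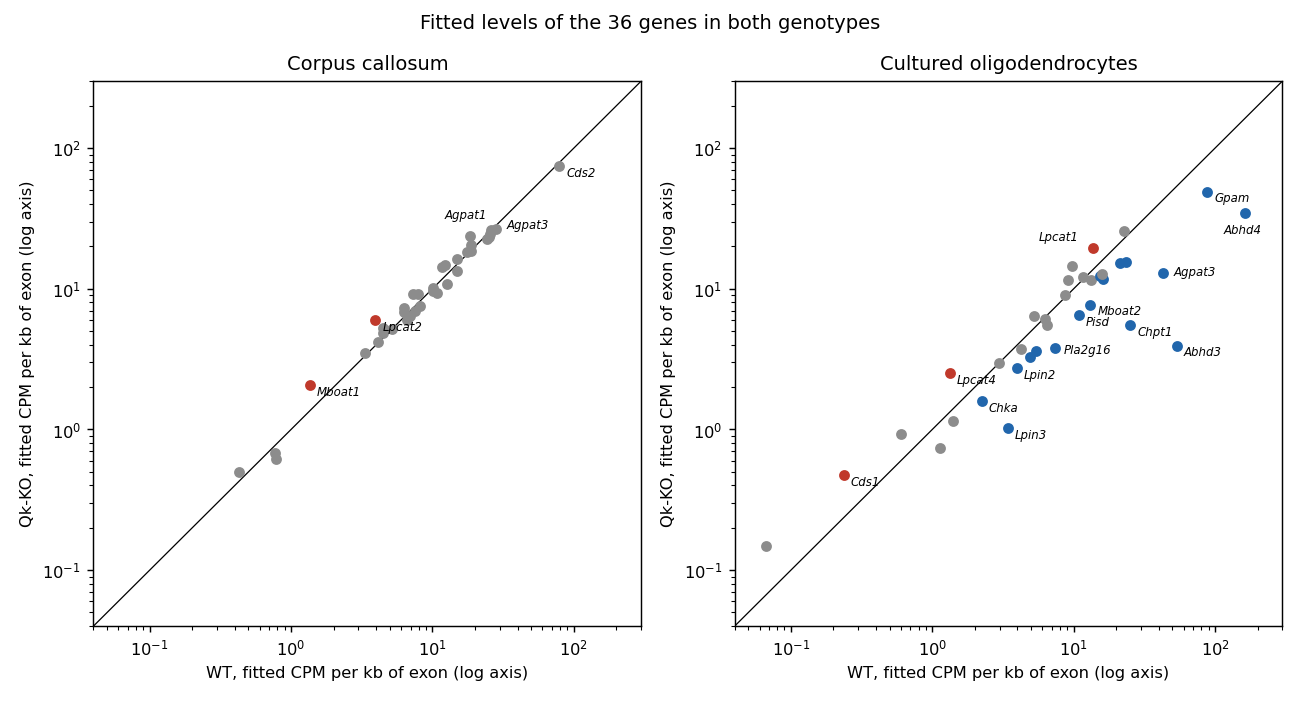
Fitted CPM per kb of exon in WT (x axis) and Qk-KO (y axis), both on log axes, for the 36 genes in callosum and culture, with red for a called rise and blue for a called fall. Points on the line are equal in both genotypes; in culture Abhd4 (164 and 34.7) and Abhd3 (53.8 and 3.94) lie below it.

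Astrocyte markers fell in the same cultures. Of 8 such markers 7 fell and none rose, with a median of -2.17 and summed levels of 13838 CPM in WT and 3912 CPM in Qk-KO. Gfap, the intermediate filament of astrocytes, stood at 4008 and 408 CPM (-3.37 ± 0.29), Mlc1 had -2.56 ± 0.13 and the gap junction gene Gja1 -2.23 ± 0.15 in the authors' deposited table. Neuron markers rose in 6 of 7 tested cases, from 738 to 1736 CPM in sum, with Snap25 at 3.84 ± 0.23 and Tubb3 at 1.74 ± 0.19 in the authors' deposited table. Of 7 oligodendrocyte markers, which check the labelled cell type, 2 rose (Mog and Opalin) and 1 fell (Aspa), with sums of 1244 and 1136 CPM. The median SE of these markers was 0.58 log2 units, against 0.16 for the 36 members, so their sums are uncertain. Of 6 precursor markers 2 rose (Olig1 and Olig2) and 3 fell (Cspg4, Gpr17 and Ptprz1), with sums of 2829 and 2615 CPM. Pdgfra missed the threshold (-0.32 ± 0.25) in the authors' deposited table. Defining genes of oligodendrocytes and of astrocytes were thus both present in the cultures. In WT the astrocyte sum (13838 CPM, 8 genes) was far above the oligodendrocyte sum (1244 CPM, 7 genes, with 1 listed marker not reported). The name oligodendrocyte is therefore that of the labels. The part of the astrocyte or neuron markers in the changes of the phospholipid genes was not tested.

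**Figure D4:**
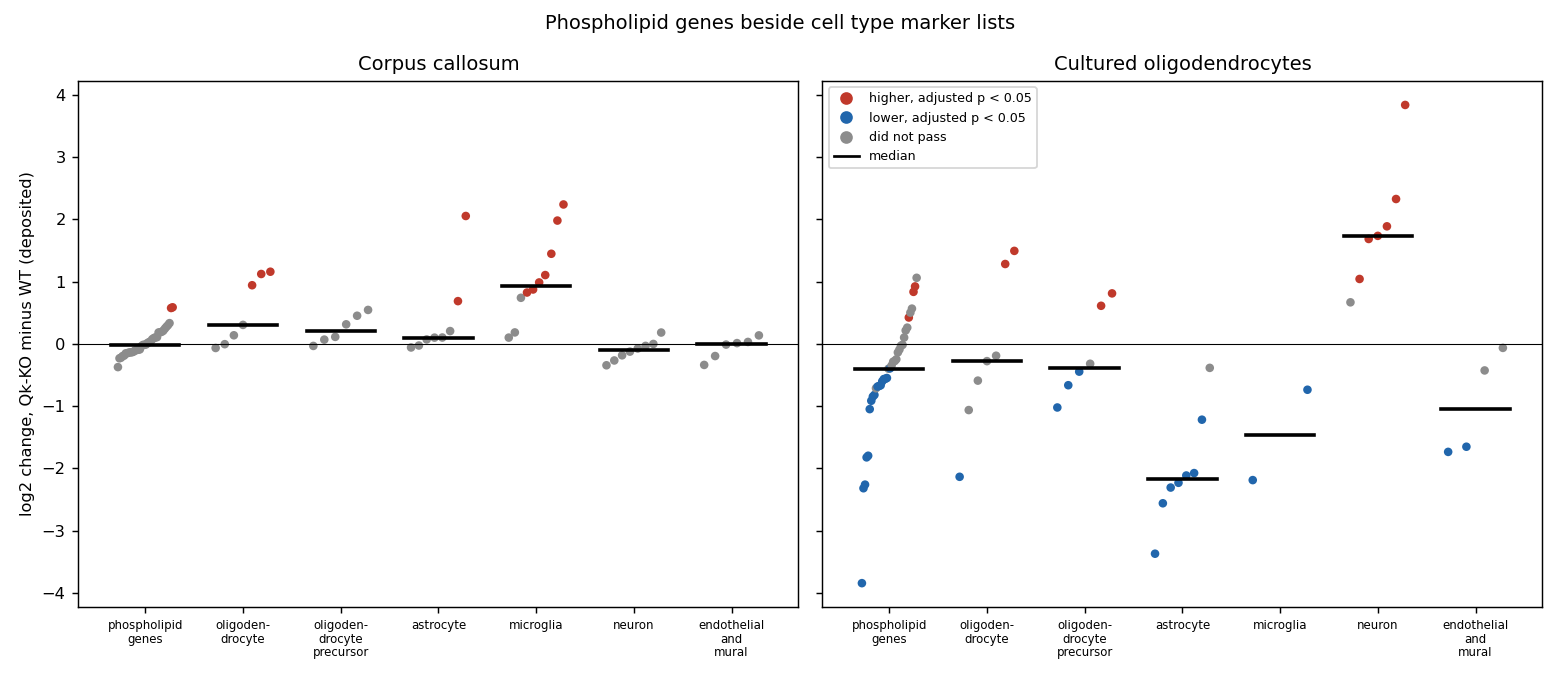
Log2 change (Qk-KO minus WT, y axis) of the 36 phospholipid genes and of the tested genes of 6 marker lists (x axis), with bars at the medians and colour for the deposited adjusted p. In culture the medians are -0.40 for the phospholipid genes, -2.17 for astrocyte and 1.74 for neuron markers; in callosum microglia markers have a median of 0.93.

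The difference between both systems was tested per gene with a two-sided z test on the 2 deposited changes and their SEs, adjusted over 16601 genes tested in both. No sample is shared between them. The deposited changes behave as shrunken ones, to degrees that may differ between the systems, and the test makes no allowance for this. The change differed at 17 members, 15 of them lower in culture and 2 higher (Cds1 and Lpcat1). Of all genes 21.5% differed and 11.7% were lower in culture. The median difference, culture minus callosum, was -0.42 over the members and 0.02 over all genes. Signs were the same in both systems at 18 of 36 members, and at 48.2% of all genes.

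The largest differences were at Abhd3 (-3.72 ± 0.24), Abhd4 (-2.56 ± 0.22), Chpt1 (-2.04 ± 0.21) and Lpin3 (-2.01 ± 0.62), in log2 units from the z test. Gpam (-1.19 ± 0.16) and Pla2g16 (-1.35 ± 0.22) had positive changes in callosum that did not pass and called falls in culture. The same held for Abhd4, Lpin3, Chka, Pcyt1b, Pisd and Lpcat3. The remaining members that fell in culture were on the negative side in callosum. Cds2, Crls1, Lpin2 and Lpcat4 were called in culture, but their difference from callosum was not, with adjusted p of 0.249, 0.370, 0.0526 and 0.0528. Lpcat2 and Mboat1, called in callosum, had differences of 0.47 ± 0.73 and -0.92 ± 0.44 that were not called either (adjusted p = 0.725 and 0.123). With a Student reference 9 members differed, each lower in culture.

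**Figure D5:**
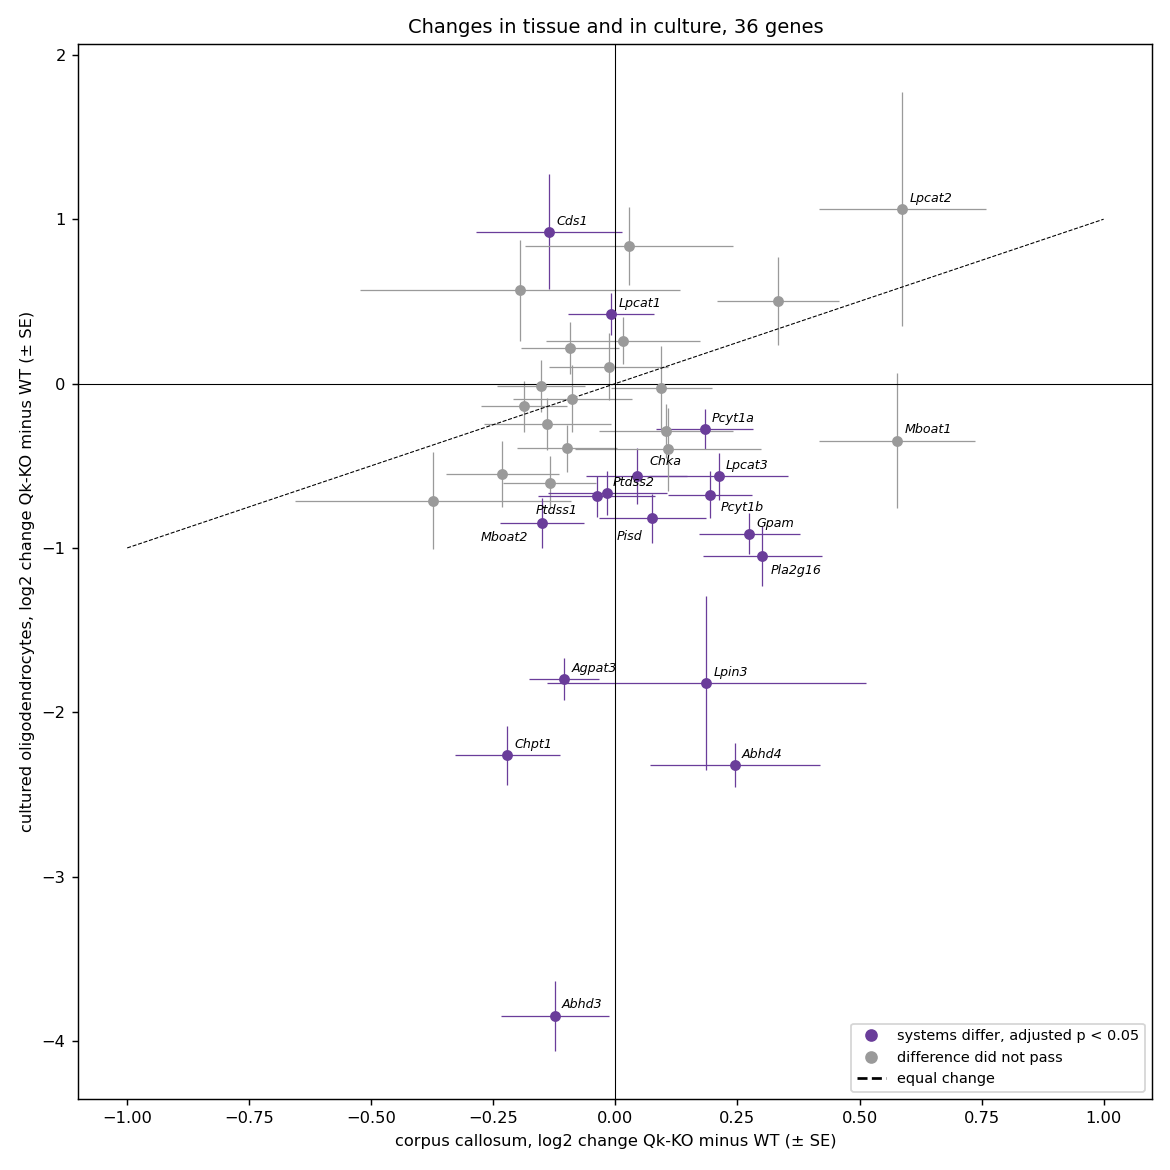
Log2 change (Qk-KO minus WT) in callosum (x axis) against culture (y axis) for the 36 genes, on unequal scales, with bars of ± SE. Purple points are the 17 genes whose changes differed between systems, 15 of them below the dashed line of equal change.

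Other genes of the pathway, listed as 80 symbols by role with older and newer names of some genes, were tested at 68 in callosum and 67 in culture. In callosum 2 rose and none fell, which is 2.94%, near the 2.32% of all tested genes called there. Ppap2c, a phosphatidate phosphatase of the plasma membrane, had 0.78 ± 0.17 (adjusted p = 4.15e-04) and Pld4, a member of the phospholipase D family, 1.23 ± 0.18 (adjusted p = 1.39e-09) in the authors' deposited table. Pld4 went from 5.53 to 13.2 CPM there and was near 0 in culture. The part of microglia in its rise was not tested. In culture 23 fell and 8 rose, which is 34.3% and 11.9% of the tested list, where 15.2% and 13.3% of all tested genes did.

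Among genes that make, carry or use precursors, several RNAs were lower in culture. Gk, glycerol kinase, had -1.46 ± 0.16, and the glycerol-3-phosphate dehydrogenases Gpd1l and Gpd2 had -0.60 ± 0.13 and -0.51 ± 0.19 in the authors' deposited table. The acyltransferase Gpat4, at 113 and 129 CPM, missed the threshold (0.11 ± 0.11) in the authors' deposited table. Slc44a1, a choline transporter, went from 354 to 98.5 CPM (-1.92 ± 0.20) in the authors' deposited table. Its relative Slc44a5 rose (0.79 ± 0.21), while Etnppl, which breaks down phosphoethanolamine, fell (-2.26 ± 0.76) in the authors' deposited table.

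Of 14 phosphatases and diacylglycerol kinases 1 fell and 2 rose in culture. Ppap2b went from 539 to 166 CPM (-1.77 ± 0.15), and the kinases Dgke and Dgkd had 0.93 ± 0.16 and 0.50 ± 0.12 in the authors' deposited table. In the phosphatidylinositol and cardiolipin group Ptpmt1, a mitochondrial phosphatase that acts just after Pgs1, fell (-1.03 ± 0.18), as did Impa2 (-0.83 ± 0.29), and Impa1 rose (0.38 ± 0.15) in the authors' deposited table. Ptpmt1 and Crls1 were thus lower among the cardiolipin enzymes, and Taz, which remodels cardiolipin, missed the threshold (-0.27 ± 0.17) in the authors' deposited table.

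Enzymes that break lipids down were lower at many points in culture. Phospholipases fell at 5 of 8 tested genes and rose at none. Pla2g7, which hydrolyses platelet-activating factor, went from 1596 to 670 CPM (-1.33 ± 0.16), and Pla2g4a, cytosolic phospholipase A2, had -1.26 ± 0.20 in the authors' deposited table. Pld1 was lower too, with -0.56 ± 0.16 in the authors' deposited table. The list of acylglycerol lipases, which also holds their regulators and acyltransferases, fell at 4 of 8 tested genes and rose at 1, G0s2 (0.69 ± 0.18 in the authors' deposited table), an inhibitor of the lipase Pnpla2. Mgll, monoacylglycerol lipase, went from 396 to 172 CPM (-1.28 ± 0.15), and Abhd5, the co-activator of Pnpla2, had -0.91 ± 0.18 and Pnpla2 itself -0.75 ± 0.17 in the authors' deposited table.

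Remodelling enzymes outside the 36 genes fell at 3 of 7 and rose at 1. Pnpla7, a lysophospholipase, went from 42.3 to 8.75 CPM (-2.35 ± 0.22), Mboat7, the acyltransferase for phosphatidylinositol, had -0.74 ± 0.17 and Lpgat1 0.54 ± 0.15 in the authors' deposited table. On the N-acylethanolamine route, which Abhd4 feeds, 2 of 6 genes fell and 2 rose. Naaa, an acid amidase, had -1.63 ± 0.16, Gdpd1 0.63 ± 0.16 and the hydrolase Faah 0.49 ± 0.17 in the authors' deposited table.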

How the data were processed

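RNA-seq was deposited as 1 table per system. Per the submitters' processing notes, reads were handled with FastQC, TopHat2 2.0.14, featureCounts and DESeq2 on mm10. Settings, annotation and strand are not given in the sources, so reads of overlapping genes cannot be told apart. Per the file headers, the authors deposited log2 library values, a mean normalized count (a signal), a log2 fold change with SE, a score, a p-value and an adjusted p-value from DESeq2. The library values were checked to be log2 of a fitted mean plus 1, differing within a genotype by a constant within 1e-09, so they hold no replicate spread. The planned edgeR test was therefore not run, and calls use the deposited adjusted p. Absolute log2 changes at means under 1 reach 1.06 in callosum and 0.96 in culture, as shrunken folds do, so low genes may be understated.

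The direction was turned to Qk-KO minus WT. CPM are shares of fitted totals, so their ratios differ slightly from folds, which use size factors. The gene mt-Rnr2 took 4.35% of counts in callosum and 18.4% in culture. Exon lengths (all annotated exons of a gene, merged) and 3′ UTRs came from GENCODE M21, promoters from RefSeq. Intervals of 95% are the change ± 1.96 SE. Alternatives were a Student reference, no filter and a minimum mean of 50, library-size scaling and centring on the median (Python 3.11.15, scipy 1.17.1).

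Named are Qk, the 36 members, up to 3 called genes with the smallest p per pathway group and comparison, and up to 3 markers per list; other named genes were chosen after their values were seen. Members and lists were chosen with earlier results of these data known. Older symbols (Ppap2b, Ppap2c, Agpat9) are those of the files. One marker on the oligodendrocyte list is not reported here.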

Additional observations from a re-analysis of the deposited data

Results flagged for a closer look

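At 17 genes the change differed between culture and callosum by the two-sided z test on the deposited changes, adjusted over 16601 genes. Culture minus callosum, in log2 units, was -3.72 at Abhd3, -2.56 at Abhd4, -2.04 at Chpt1, -2.01 at Lpin3, -1.69 at Agpat3, -1.35 at Pla2g16 and -1.19 at Gpam. Smaller differences of the same sign stood at Pisd (-0.90), Pcyt1b (-0.87), Lpcat3 (-0.78), Mboat2 (-0.70), Ptdss1 (-0.65), Ptdss2 (-0.65), Chka (-0.60) and Pcyt1a (-0.46). Pcyt1a was called in neither system alone. At Cds1 (1.06) and Lpcat1 (0.43) the change was higher in culture. The systems also differ in other ways, among them tissue against culture and the drug named in the labels, which cannot be told apart here.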

How the results depend on the processing

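Referring the score to a Student distribution left 8 of 463 calls among all genes and 0 of 2 among the members in callosum. In culture it left 0 of 5003 and 0 of 20, and between systems 9 of 17 member differences. This wider reference raises every p by construction, but how many calls remain is not fixed in advance. In the other settings member calls numbered 2 in callosum, 18 to 21 in culture and 17 to 18 for the difference, and 17 of the 20 culture calls and both callosum calls held in each of them. Library-size scaling, a shift of 0.02 log2 units in callosum and 0.08 in culture, turned the sign of 5 uncalled changes: Agpat1 (0.0091), Ptdss2 (0.0065) and Lpcat1 (0.014) in callosum, and Agpat5 (0.062) and Pcyt2 (0.048) in culture. No paired analysis was possible because the library columns are fitted means without replicate spread. For the same reason leaving out replicates and edgeR's test were not run, and no single library could be examined. Low levels limit Agpat2, Cds1, Pemt and Lpcat2 in culture, and Agpat2, Lpin3 and Pemt in callosum.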
